A study of Mus musculus with 11 samples.

Results

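The cytosolic ribosomal protein genes encode the proteins of the large (Rpl genes) and small (Rps genes) subunits of the ribosome, the particle that translates mRNA in the cytosol. They were examined in single mesenchymal cells of the mouse liver. Gene symbols of the 10X Chromium data were taken as members when they began with Rpl or Rps and a digit, or were Rplp0, Rplp1, Rplp2 or Rpsa. Kinases of the Rps6k family and symbols ending in -ps or with -ps before a number, which name pseudogenes, were left out. The name rule took 87 of 27998 symbols. A level of at least 10 CPM (UMI counts scaled to a fixed library total) in 1 library left 84 members, 50 of the large and 34 of the small subunit, among 9457 genes at that level. The 3 symbols below it were Rpl3l, Rpl10l and Rpl39l. The rule also took Rps19bp1, which binds a ribosomal protein and is not one itself, and it missed Fau, whose product is a fusion that releases a ribosomal protein.

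A ribosome holds close to 1 copy of most of its proteins, so cells make them in matched amounts. Most of their mRNAs begin with a 5′ terminal oligopyrimidine (TOP) tract, a C at the cap followed by a run of C and T, through which mTOR signalling sets how actively they are translated. Several elongation and initiation factors share this tract. rRNA synthesis, processing of its precursors and subunit assembly use a separate set of nucleolar genes, and mitochondria have ribosomal proteins of their own. In liver, hepatic stellate cells (HSCs), which store vitamin A in the quiescent state, enlarge, divide and secrete matrix when activated.

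All mice were male Pdgfrb-BAC-eGFP reporters on a C57BL/6 background, in which green fluorescent protein marks hepatic mesenchyme. Sorted cells were GFP+ and negative for CD45 and CD102. With 10X Chromium, cells freed by digestion protocol 1, which gives portal fibroblasts (FBs) and vascular smooth muscle cells (VSMCs), came from uninjured mice and from mice given CCl4, a hepatotoxin, for 6 weeks. Cells freed by protocol 2, which gives HSCs, came from uninjured mice, from mice 72 h after a single dose of CCl4 and from mice given CCl4 for 6 weeks. By the paper's methods, the single dose followed an overnight fast, and 6-week livers were taken less than 72 h after the last dose. Each library pooled 3 mice that cannot be told apart, so there was 1 library per condition and protocol, no p-value was computed for 10X, and intervals cover counting error only. On 6 Smart-seq2 plates, wells came from uninjured mice, mice 14 d after bile duct ligation (BDL) and mice given CCl4 for 6 weeks.

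Between 5454 and 7310 cells per 10X library passed the filters, with 25962955 to 86661230 unique molecular identifiers (UMIs) in all. The median cell held 4299 UMIs in uninjured mice with protocol 1 and 11343.5 UMIs at 72 h with protocol 2. Between 33 and 74 cell barcodes were shared by each pair of libraries. Clusters made without the members were named from marker genes: FB-like and VSMC-like clusters made up the protocol 1 libraries and HSC-like clusters the protocol 2 libraries, beside 1 unnamed cluster in which hepatocyte markers scored highest. Of 6 leucocyte markers, 4 to 6 were above 0 in each library, with summed levels of 6.73 to 13.9 CPM. Among them Ptprc, which encodes CD45, was at 0 in 4 of the 5 libraries. Genes seen in under 3 cells of a library were set to 0 in it.

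The start sequences are shown first because most members had a like ratio to uninjured cells and are known for a shared start. The RefSeq table of promoters (GRCm38.p6) held 63 of the 84 members. Counted from a C within 5 bases of an annotated start, 30 of these 63 members (47.6%) had a run of 5 or more bases that are each C or T. Bases just before that C could also be C or T, as in Rpl38. The same search, on the strand of the gene, found a run in 24.1% of the genes at 10 CPM or more and in 21.2% of all genes of the table. With the C required at the annotated start itself, the shares were 22.2% of the members, 3.15% of the genes at 10 CPM and 0% of 68 mitochondrial ribosomal protein genes. Each stretch below runs from 15 bases before the annotated start to 14 after it, 5′ to 3′, with the run in capitals where the search found one. The set holds Rpl38 and Rps15a as examples of a run at the start, the near-identical pair Rps27 and Rps27rt, the 3 members with the largest ratio at 72 h, and 2 further members that were not higher there.
Rpl38 (chr11:114668565-114668594, plus strand): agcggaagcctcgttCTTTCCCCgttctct
Rps15a (chr7:118116133-118116162, minus strand): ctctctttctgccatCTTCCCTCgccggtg
Rps27 (chr3:90213634-90213663, minus strand): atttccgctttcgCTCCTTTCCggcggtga
Rps27rt (chr9:114982725-114982754, minus strand): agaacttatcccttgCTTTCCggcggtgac
Rplp0 (chr5:115559452-115559481, plus strand): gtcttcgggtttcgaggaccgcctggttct
Rpl12 (chr2:32961697-32961726, plus strand): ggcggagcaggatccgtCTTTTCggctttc
Rps12 (chr10:23787195-23787224, minus strand): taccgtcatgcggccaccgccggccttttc
Rpl7l1 (chr17:46782642-46782671, minus strand): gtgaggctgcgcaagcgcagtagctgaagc
Rps19bp1 (chr15:80264292-80264321, minus strand): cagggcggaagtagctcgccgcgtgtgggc
The 30 members with a run had a median log2 ratio to uninjured HSCs of 1.22 at 72 h and the 33 without one 1.24, so the letters did not separate the levels given below. An annotated start can lie some bases from the start that cells use. A missing mark therefore says only that no such run could be counted from a C within 5 bases of the annotated start. Runs further away, as at the end of the Rps12 stretch, were not marked. The genes themselves lie on 19 chromosomes, with 14 members on the chromosome that holds the most.

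All cells of the protocol 2 libraries are called HSCs from here on, the unnamed cluster included. That cluster held 101 of 6850 uninjured cells, 3 of 7310 at 72 h and 753 of 5454 at 6 weeks. Its genes of largest fold include the endothelial marker Clec4g and the HSC marker Colec11, so for it the name is only a label. The question of the 10X comparison was how far the level of the ribosomal protein genes differed between injured mice and uninjured mice of the same isolation. In HSCs they took up 9.53% of all UMIs in uninjured mice (95% Wilson interval 9.526 to 9.542), 22.6% at 72 h (22.55 to 22.57) and 17.2% at 6 weeks (17.155 to 17.175). In cells of protocol 1 they took up 16.1% of UMIs in uninjured mice and 14.996% after 6 weeks of CCl4. The uninjured HSCs thus had the lowest share of the 5 libraries and the HSCs at 72 h the highest.

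The difference was seen across the range of single cells. In uninjured HSC-like cells the middle 90% of cells lay between 6.80% and 11.9%, with a median of 9.48%. In HSC-like cells at 72 h this range was 14.5% to 28.7%, with a median of 22.6%, so that these ranges did not overlap. At 6 weeks the share of all HSC-like UMIs was 17.8%. FB-like cells had 16.9% in uninjured mice and 16.8% at 6 weeks, and VSMC-like cells had 13.1% and 12.8%.

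**Figure D1:**
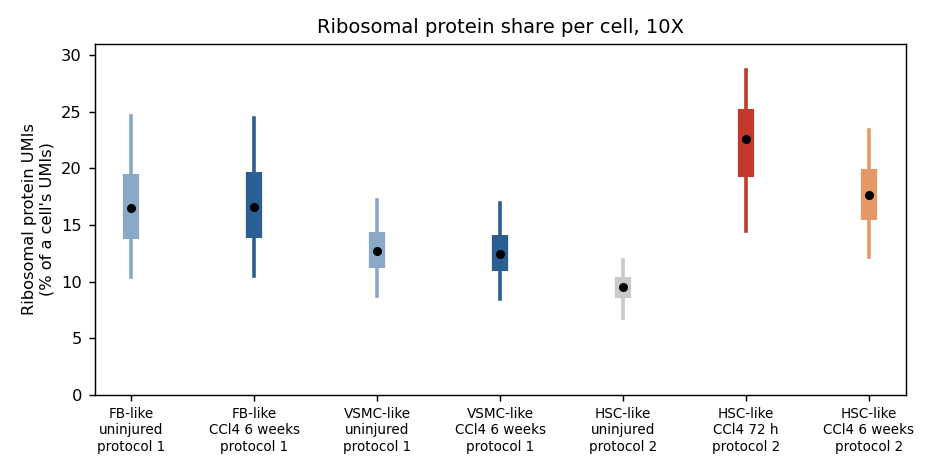
Share of a cell's UMIs that fell on the 84 ribosomal protein genes (percent, y axis) for FB-like, VSMC-like and HSC-like cells of each 10X library (x axis). Points are medians over cells, thick bars the middle 50% and thin lines the middle 90% of cells. HSC-like cells of uninjured mice had the lowest median (9.48%) and HSC-like cells at 72 h the highest (22.6%), while FB-like and VSMC-like cells kept similar ranges with and without CCl4.

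Depth differed between the libraries, so cells of the same range of UMIs were also compared. In cells with 5000 to 10000 UMIs, whose medians still differed (6960.5, 7601 and 8395.5 UMIs), the ribosomal protein share was 9.56% in 5246 uninjured HSC library cells, 21.2% in 2115 cells at 72 h and 16.8% in 2010 cells at 6 weeks. In cells with 2000 to 5000 UMIs it was 8.88%, 20.3% and 17.4%. Counted per cell, ribosomal protein UMIs went from 646 in uninjured mice to 2675 at 72 h, 4.14 times as many, while UMIs of all other genes were 1.498 times as many. At 6 weeks the corresponding ratios were 2.55-fold and 1.29-fold. A larger RNA content per cell and a deeper library cannot be told apart here. Within a library the share was weakly related to a cell's UMIs (Spearman rho 0.11 over uninjured HSC library cells and 0.22 at 72 h, a description over cells of 1 library).

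Members were counted as higher when their CPM was over 25% above that of the uninjured library, and as lower when it was over 20% below, the same fold in both directions. At 72 h, 79 of 84 members were higher than in uninjured HSCs and 1 was lower, beside 24.1% and 41.2% of all 9457 genes. The median log2 ratio of the members was 1.24, a 2.36-fold difference, and the median of all genes was -0.19. At 6 weeks, 78 of 84 were higher and 0 lower, beside 14.8% and 34.8% of all genes, with a median log2 ratio of 0.87 (1.83-fold) beside -0.19 for all genes. Both comparisons share the uninjured library, so its level enters both. Without replicate libraries, the spread between mice is unknown.

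The large and small subunits differed by like amounts. The 50 large subunit members had a median log2 ratio of 1.24 at 72 h and 0.88 at 6 weeks, and the 34 small subunit members 1.255 and 0.86. In 76 of 84 members the order of the levels was uninjured, then 6 weeks, then 72 h. In 75 of these the exact Poisson intervals of the 3 libraries did not overlap. Neither count was made over all genes, and such intervals are narrow at this depth, so nothing is concluded from either. Rpl27, Rpl6l, Rps27 and Rps28 were highest at 6 weeks with uninjured lowest, and Rpl22l1, Rpl7l1, Rps19bp1 and Rps27rt had other orders.

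**Figure D2:**
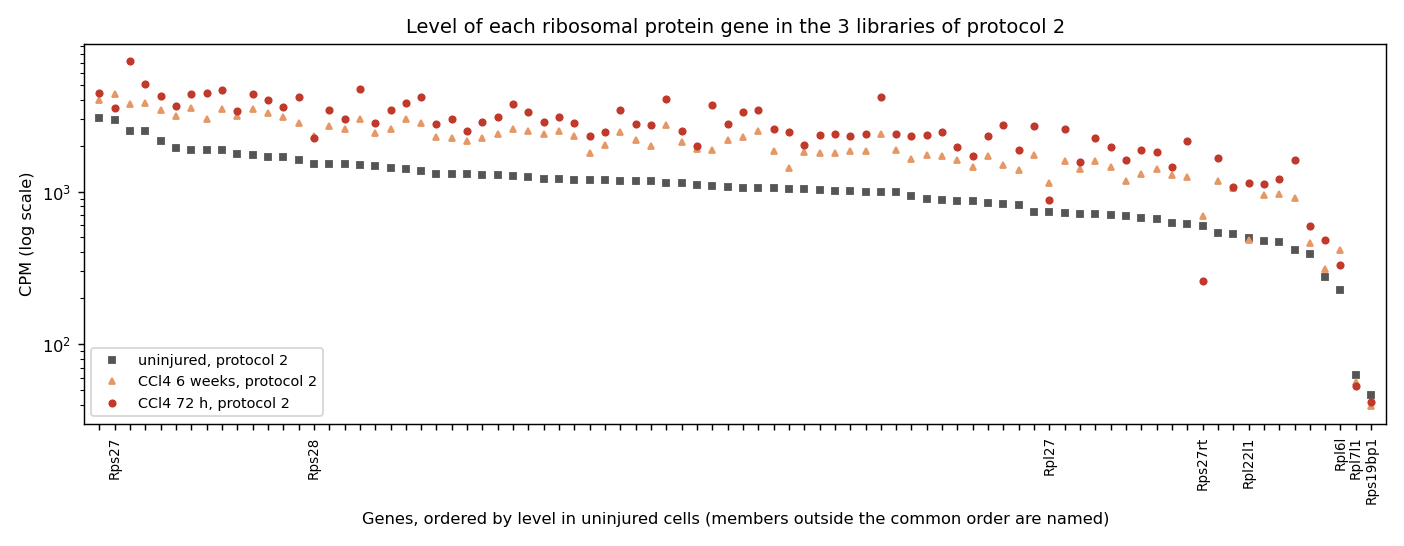
Level of each of the 84 members (CPM, log scale, y axis) in uninjured HSCs (squares), at 6 weeks of CCl4 (triangles) and at 72 h (circles), each 1 library of protocol 2, with genes on the x axis ordered by the uninjured level and the 8 members outside the common order named. Circles lie above squares for 81 of 84 members. Rps27rt, Rpl7l1 and Rps19bp1 are the exceptions. The median log2 ratio of all 9457 genes at 72 h was -0.19, and the share of them above the uninjured level was not counted.

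The most abundant members over the 5 libraries were Rpl41, Rps29, Rpl13, Rps27 and Rpl13a. Rpl41, which encodes the smallest protein of the ribosome, was at 4559 CPM in uninjured and 4139 CPM in 6-week cells of protocol 1, and at 2493, 7168 and 3766 CPM in uninjured, 72 h and 6-week HSCs. At 7168 CPM it was the highest of the members at 72 h. Rps29, a zinc-binding protein of the small subunit, was at 4015 and 4228 CPM with protocol 1, and at 3036, 4450 and 4011 CPM in the same order of HSC libraries. Rpl13 was at 4619 and 3621 CPM with protocol 1, and at 2482, 5078 and 3823 CPM in HSCs. Rpl13a, a large subunit protein also known for a role outside the ribosome in inflammatory translational control, was at 3069 and 2678 CPM with protocol 1, and at 1875, 4644 and 3475 CPM in HSCs. The values of Rps27 are given with its copy below.

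The 3 largest ratios at 72 h were those of Rplp0, Rpl12 and Rps12. Rplp0 encodes the protein that anchors the stalk, the arm of the large subunit that recruits elongation factors. It was at 1000 CPM in uninjured HSCs (exact Poisson 95% interval 991 to 1010), 4180 CPM at 72 h (4166 to 4194) and 2374 CPM at 6 weeks (2361 to 2387), which is 4.18-fold and 2.37-fold the uninjured level. Rpl12, which sits at the base of the stalk, was at 416, 1607 and 914 CPM, a log2 ratio of 1.95 at 72 h. Rps12, a small subunit protein, was at 740, 2692 and 1751 CPM, a log2 ratio of 1.86 at 72 h. The 3 largest ratios at 6 weeks were those of Rpl39, Rplp0 and Rpl23. Rpl39, which lines the exit tunnel for the nascent chain, was at 1143, 4049 and 2742 CPM, log2 ratios of 1.83 and 1.26. Rpl23 was at 1056, 3408 and 2500 CPM, log2 ratios of 1.69 and 1.24.

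The stalk proteins P1 and P2, encoded by Rplp1 and Rplp2, were also higher. Rplp1 was at 1490 CPM in uninjured HSCs, 4746 CPM at 72 h and 2984 CPM at 6 weeks, and Rplp2 at 1172, 2754 and 1999 CPM. Together the 3 stalk genes held 3662 CPM in uninjured HSCs and 11681 CPM at 72 h. With protocol 1 they held 7421 CPM in uninjured mice and 6581 CPM at 6 weeks, in libraries with other proportions of cells. Within FB-like cells they held 8066 and 7888 CPM, and within VSMC-like cells 5165 and 5011 CPM.

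Rps27rt, a retrotransposed copy of Rps27, was at 599 CPM in uninjured HSCs (592 to 606), 258 CPM at 72 h (254 to 261) and 693 CPM at 6 weeks (686 to 700). It was the only member counted as lower at 72 h, with a log2 ratio of -1.22. With protocol 1 it was at 304 CPM in uninjured mice and 544 CPM at 6 weeks, a log2 ratio of 0.84 and the only member counted as higher there. Rps27 itself was at 2952, 3558 and 4399 CPM in uninjured, 72 h and 6-week HSCs and at 3479 and 3442 CPM with protocol 1. The annotated transcripts of Rps27rt and Rps27 share an exact run of 341 bases, and the longest Rps27rt transcript has 374 bases, so the counts of both are uncertain. Their sum was 3551 CPM in uninjured HSCs, 3816 CPM at 72 h and 5092 CPM at 6 weeks. Rpl6l shares an exact run of 354 bases with Rpl6 and is uncertain in the same way.

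Rpl22l1, Rps27l, Rpl36al and Rpl7l1 share exact runs of at most 26 bases with their namesakes and can be counted apart. Rpl22l1, the paralogue of Rpl22, was at 496 CPM in uninjured HSCs, 1144 CPM at 72 h and 479 CPM at 6 weeks, so that it was higher at 72 h alone. Rpl22 was at 476, 1125 and 957 CPM. Rps27l, a paralogue of Rps27 known as a p53 target, was at 276, 482 and 310 CPM, a log2 ratio of 0.80 at 72 h and 0.17 at 6 weeks. Rpl36al was at 389, 596 and 459 CPM, and its namesake Rpl36a at 816, 1883 and 1392 CPM. Rpl7l1, named for its likeness to Rpl7, was at 62.8, 53.4 and 56.6 CPM, while Rpl7 was at 842, 2319 and 1720 CPM. Rps19bp1 was at 46.2, 41.4 and 39.0 CPM, while Rps19, the protein it binds, was at 1883, 4438 and 2991 CPM. Rpl7l1 and Rps19bp1 were within the fold limit at 72 h and at 6 weeks. At 6 weeks the log2 ratios of Rpl7l1 and Rpl22l1 were -0.15 and -0.05 on CPM, and 0.06 and 0.16 after median-of-ratios scaling, which shifts all genes alike.

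Median-of-ratios factors differed from CPM by -0.20 at 72 h and -0.21 at 6 weeks on the log2 scale, and with them the members' medians were 1.44 and 1.09. For protocol 1 the median was -0.08 with either scaling.

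In FBs and VSMCs, for which protocol 1 gave the same comparison, the levels were close to those of uninjured mice. After 6 weeks of CCl4, 1 member was higher (Rps27rt) and 4 were lower (Rpl13, Rpl6l, Rplp0 and Rps19bp1), beside 17.8% and 12.7% of all genes. The median log2 ratio was -0.08 and that of all genes 0.00. The library held other proportions of cells, with 4065 FB-like and 1667 VSMC-like cells in uninjured mice and 2638 and 3001 at 6 weeks. Within FB-like cells the median was -0.01, with 4 members higher and 2 lower beside 15.4% and 8.43% of all genes. Within VSMC-like cells it was -0.04, with 1 member higher and 1 lower beside 20.8% and 11.0%. The log2 ratios at 6 weeks in protocol 2 and in protocol 1, which share no library, had no common order (Spearman rho 0.03 over 84 members, a description across genes).

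Apart from Rps27rt, no member differed by more than 0.45 on the log2 scale in protocol 1. Rps27rt was at 329 and 649 CPM in FB-like cells and at 217 and 417 CPM in VSMC-like cells, uninjured and 6 weeks. Rpl22l1 had log2 ratios of 0.40 (FB-like cells) and 0.29 (VSMC-like cells), Rpl39 0.37 and 0.27, and Rps28 0.34 and 0.30, in the same order. At the other end, Rpl6l had log2 ratios of -0.35 and -0.36, Rps19bp1 -0.32 and -0.19, Rpl13 -0.25 and -0.21, and Rplp0 -0.18 and -0.25. Over all protocol 1 cells, Rplp0 was at 2713 CPM in uninjured mice and 2127 CPM at 6 weeks, a log2 ratio of -0.35, opposite in sign to its ratio in HSCs. Within FB-like cells and within VSMC-like cells, Rplp0 did not pass the fold limit.

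Translation factors whose mRNAs are known to carry a TOP tract were higher in the same libraries. Of 18 measured, 18 were higher at 72 h and 16 at 6 weeks, beside 24.1% and 14.8% of all genes. Their medians were 1.13 and 0.95 on the log2 scale. Eef1b2, an exchange factor of elongation factor 1, was at 199 CPM in uninjured HSCs and 807 CPM at 72 h, Gnb2l1, which encodes RACK1 of the small subunit, at 370 and 1215 CPM, and Eef1a1, which delivers aminoacyl-tRNA, at 2670 and 7890 CPM. With protocol 1, 2 of 18 were higher and 0 lower, beside 17.8% and 12.7% of all genes.

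Other gene groups of the pathway differed from this. Of 28 measured ribosome assembly genes, 2 were higher and 19 lower at 72 h, with a median of -0.53, and 1 was higher and 14 lower at 6 weeks, with a median of -0.30. Their summed level was not lower: 1659 CPM in uninjured HSCs, 1695 CPM at 72 h and 1665 CPM at 6 weeks. In VSMC-like cells at 6 weeks, 14 of the 28 were higher and 0 lower, with a median of 0.32, beside the 20.8% and 11.0% of all genes given above. The nucleolar chaperone gene Nolc1 was at 42.2 CPM in uninjured HSCs and 15.9 CPM at 72 h, Nop56, part of the methylation complex of rRNA, at 42.7 and 16.8 CPM, and Npm1, an abundant nucleolar chaperone, at 356 and 721 CPM. Of 22 initiation factors outside the TOP group, 2 were higher and 11 lower at 72 h, median -0.32, and 0 were higher and 14 lower at 6 weeks, median -0.37, where 41.2% and 34.8% of all genes were lower. Of 75 mitochondrial ribosomal protein genes, 22 were higher and 14 lower at 72 h, median 0.11, and 2 were higher and 18 lower at 6 weeks, median -0.19, the same as that of all genes. Of all genes, 24.1% were higher at 72 h and 14.8% at 6 weeks, the shares to set beside the counts of each of these lists. Myc, a transcription factor known to drive ribosomal genes, was at 62.2, 37.5 and 108 CPM in uninjured, 72 h and 6-week HSCs, and Mycn at 12.9, 4.88 and 6.61 CPM.

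**Figure D3:**
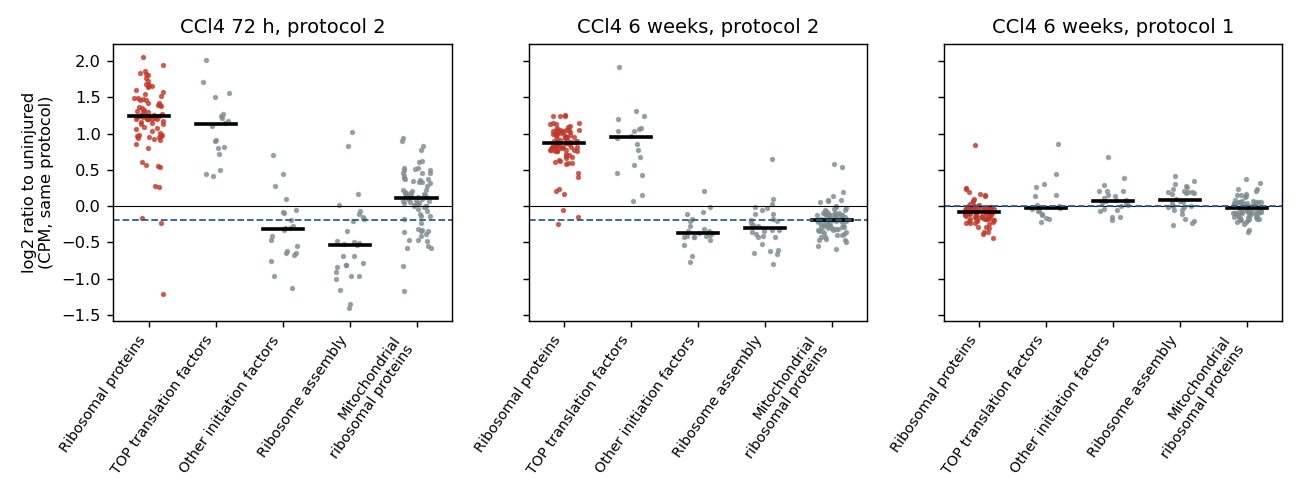
log2 ratio of CPM to the uninjured library of the same protocol (y axis) for each gene (points) of 5 lists (x axis), with list medians as black bars and the median of all 9457 genes as a dashed line. Ribosomal proteins (medians 1.24 and 0.87) and TOP translation factors (1.13 and 0.95) lie above the dashed line in both HSC comparisons, while ribosome assembly genes (-0.53 and -0.30) lie below it; in protocol 1 the 5 medians lie between -0.08 and 0.09.

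Several other measures differed at 72 h beside the ribosomal protein share. The summed level of 9 heat shock genes was 3622 CPM in uninjured HSCs, 1437 CPM at 72 h and 3548 CPM at 6 weeks, and that of 9 immediate early genes, which respond to tissue digestion, was 12556, 7320 and 10273 CPM. The share of mitochondrial UMIs was 1.83%, 2.84% and 1.80%. Summed levels of 6 hepatocyte markers were 54.0, 32.4 and 45.0 CPM, with all 6 above 0 in each library, and of 6 endothelial markers 63.5, 28.8 and 82.6 CPM, with Cdh5 at 0 in each. Without cells that held 3 or more markers of another cell type, the median log2 ratio at 72 h was 1.24, as with them. Only 112 of 6850 uninjured cells and 22 of 7310 cells at 72 h were left out, so the part of other cell types was not tested by this. The part of heat shock, immediate early and mitochondrial genes in the result was not tested.

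Dividing cells are common at 72 h, and their genes were higher there, 14 of 14 beside 24.1% of all genes. Their summed level was 95.5 CPM in uninjured HSCs and 1124 CPM at 72 h. Cells with UMIs of at least 3 of these genes had a ribosomal protein share of 21.8% (2205 cells), and cells with none of them 22.6% (1756 cells). In cells with 5000 to 10000 UMIs the shares were 19.8% and 21.8%. Uninjured cells with none of them had 9.54%. At 72 h the median cell with none held 8526.5 UMIs and the median cell with at least 3 held 13130. Detection of these genes can depend on UMIs, so a cell with none of them need not be outside division. The part of cell division in the difference was not tested. At 6 weeks, 131 cells with at least 3 such genes had 14.4% and 3319 with none had 17.3%.

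Clusters differed in ribosomal protein share at each time after CCl4. In uninjured HSCs the cluster medians lay between 8.90% and 9.86%. At 72 h the medians were 24.5%, 24.1% and 22.1% in clusters 11, 1 and 12, 18.2% in cluster 8 and 15.3% in cluster 14. Clusters 12 and 14 were led by dividing cell genes such as Stmn1 and Cenpf. At 6 weeks they were 18.5%, 17.4% and 15.7% in clusters 6, 5 and 8, 13.3% in the unnamed cluster 13 (753 cells), 12.1% in cluster 9 and 11.9% in cluster 14. The lowest median after CCl4 was therefore above the highest in uninjured mice. Clusters 8 and 14, found at both times, had a higher median at 72 h than at 6 weeks. Depth was not matched there: the median cell of cluster 8 held 9848.5 UMIs at 72 h and 4542 at 6 weeks. Cluster 14 held 358 cells at 72 h and 69 at 6 weeks, with medians of 10829.5 and 11593 UMIs. Cluster names come from a rule set after clusters had been looked at, and clusters of few cells in 1 library may carry that library's background.

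**Figure D4:**
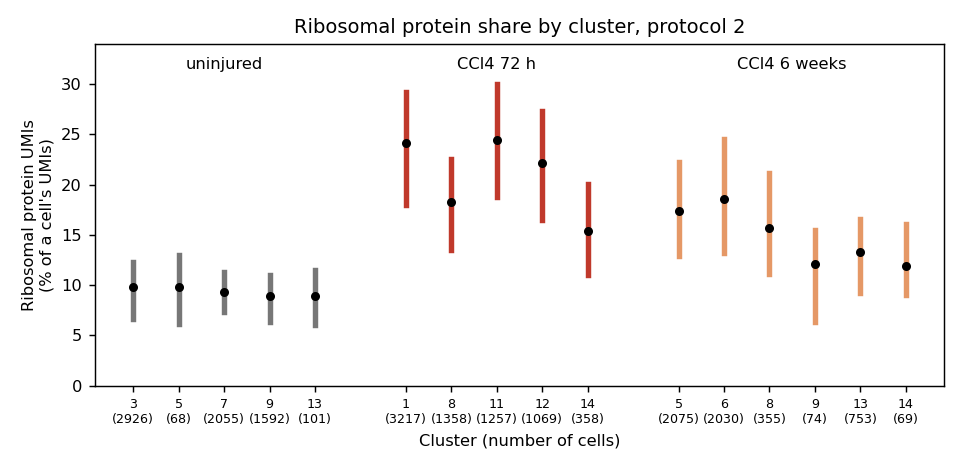
Share of a cell's UMIs on the 84 ribosomal protein genes (percent, y axis) in clusters of at least 50 cells in the 3 libraries of protocol 2 (x axis, with cell numbers). Points are medians and lines the middle 90% of cells; all clusters are HSC-like except the unnamed cluster 13. The 5 uninjured clusters lie between 8.90% and 9.86%, and every cluster after CCl4 has a higher median, from 11.9% to 24.5%.

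The order of the members by level was largely kept between libraries. The rank correlation of the CPM of the 84 members was 0.98 between both libraries of protocol 1, 0.96 between uninjured and 6-week HSCs, and 0.88 between uninjured and 72 h HSCs, the lowest of 10 pairs. These are descriptions over genes, which share library and depth.

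Smart-seq2 gave a second measure in wells labelled by mouse, with reads scaled to the total of a portion (RPM) in place of UMIs. Few counted reads of the plates fell on ribosomal protein genes: members held 0.746% to 0.992% of reads in uninjured wells of plates 1 to 5. Whether this arose in the libraries or in the counting of reads was not tested. Of 83 members found in those files (Rpl6l was not), 31 averaged under 10 RPM, 9 averaged under 1 RPM and Rps27rt was at 0 throughout. Rpl27 and Rpl28 were among those under 1 RPM, while uninjured cells of protocol 1 had them at 801 and 1424 CPM by 10X, so levels of single members are not comparable between the assays. The highest were Rpl4 at 1103 RPM and Rps3 at 799.9 RPM, as means over the 17 portions, a portion being the kept wells of 1 mouse on 1 plate. The BDL mouse names recur on plates 1, 2 and 4, the CCl4 mouse names on plates 3 and 5, and a single uninjured name on plates 1 to 5, so portions need not be separate mice in any group. The p-values measure the spread between portions.

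On plate 6, which held wells of both isolations from uninjured mice, members of mouse 1 took up 0.467% of FB-like and 0.438% of VSMC-like reads, and 0.279% and 0.318% in HSC-like wells of mice 2 and 3. The order was that of uninjured 10X libraries, with HSC-like cells lowest. In 10X, cell type went with the isolation protocol, and on plate 6 it went with the mouse. Cell type therefore cannot be told apart from isolation or mouse in this order. With 1 or 2 mice a group on 1 plate this was not tested.

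In uninjured portions, FB-like wells had a higher ribosomal protein share than VSMC-like wells in 6 of 6 portions. The shares were 0.981%, 1.38%, 0.880%, 0.897%, 0.823% and 0.467% for FB-like wells on plates 1 to 6, and 0.806%, 0.774%, 0.750%, 0.728%, 0.675% and 0.438% for VSMC-like wells of the same portions. With edgeR's quasi-likelihood test, paired within a portion and with Benjamini-Hochberg adjustment over 14412 genes, 10 of 82 tested members were higher in FB-like wells and 0 lower, beside 8.21% and 7.18% of all genes. At an unadjusted p under 0.05 the counts were 18 and 0, beside 14.2% and 12.9% of all genes. The median log2 fold of the 82 members was 0.37, beside -0.03 for all genes. With DESeq2, 28 members were higher and 0 lower, beside 17.1% and 13.6% of all genes. Leaving out 1 portion left 2 members without that of plate 1, 4 or 5, and 3 without that of plate 2 or 3. Without that of plate 6 it left 10. The number called thus varied with the portions used. The share of all genes called was not counted with a portion left out, so nothing is concluded about the members from these numbers.

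Rplp1 gave the smallest adjusted p of these. It was at 349.7, 449.9, 309.9, 317, 319 and 107 RPM on plates 1 to 6 for FB-like wells, and at 199, 206, 167, 184, 169 and 62.3 RPM for VSMC-like wells, higher in FB-like wells of each portion. Its log2 fold was 0.99 ± 0.15 (SE), with an edgeR adjusted p of 0.0018. Rps4x, the X-linked small subunit protein, had a log2 fold of 0.79 ± 0.19 (edgeR adjusted p = 0.019), and Rps26 and Rps20 had 0.89 ± 0.22 and 0.80 ± 0.20 (edgeR adjusted p = 0.026 for both). Each was higher in 6 of 6 portions. In the 10X library of uninjured mice, the summed share was likewise larger among FB-like cells (16.9%) than among VSMC-like cells (13.1%).

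The injury comparison on plates 1 to 5 asked whether BDL or 6 weeks of CCl4 moved the members in periportal mesenchyme. Over the 6 plates, kept wells also held unnamed clusters led by Saa3 (168 wells) and Ltbp2 (69) and a mesothelial cluster (27). FB-like and VSMC-like sums left these out. They took a larger part of injured portions. On plate 5, FB-like and VSMC-like wells were 20 and 50 of 162 for CCl4 mouse 1, and 58 and 56 of 116 uninjured. The part of this mix in the all-wells values was not tested. In a fit of all kept wells over 14 portions with plate as a term, edgeR called 0 of 82 members for BDL and 0 for CCl4. There were 5 BDL, 4 CCl4 and 5 uninjured portions. The same test called 0% of 16651 genes higher and 0% lower for BDL, and 0.00601% and 0% for CCl4. At an unadjusted p under 0.05, 0 members were higher and 6 lower for BDL, beside 4.85% and 3.45% of all genes, and 0 either way for CCl4, beside 3.03% and 1.38%. DESeq2 called 0 members in both, where it called 2.61% of all genes higher and 1.32% lower for BDL, and 1.86% and 0.514% for CCl4. The median log2 fold of the members was -0.25 for BDL and -0.01 for CCl4, beside 0.09 and 0.03 for all genes. With library sizes taken from the spike-in reads these medians were 0.30 and 0.40, beside 0.67 and 0.45 for all genes. There too 0 members were called, and the share of all genes called was not counted. For the BDL comparison alone, simulated counts (16651 genes) gave back 5% of genes changed by 1 on the log2 scale, 68% of those changed by 2 and 82% of those changed by 3. Changes of 1 were thus mostly not detectable in the genes drawn. The changed genes were drawn at random from all genes with a mean of at least 10 CPM, and plate effects were not simulated. Rates for the members themselves were not measured. These rates therefore do not cover the 31 of 83 members that averaged under 10 RPM.

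Within subpopulations the values were similar. In FB-like wells the median log2 fold was -0.27 for BDL and 0.12 for CCl4, with 0 of 82 members called by edgeR, beside 0% of 14357 genes in each direction. At an unadjusted p under 0.05, 0 members were higher and 3 lower for BDL, beside 1.92% and 2.39% of all genes, and 0 either way for CCl4, beside 0.425% and 0.912%. DESeq2 called 0 members in FB-like wells, beside 1.1% of all genes higher and 0.847% lower for BDL, and 0.389% and 0.469% for CCl4. In VSMC-like wells it was -0.26 and 0.02, with 0 called by edgeR, beside 0.00699% of 14302 genes higher for BDL and 0% otherwise. At an unadjusted p under 0.05, 0 members were higher and 4 lower for BDL, beside 4.17% and 2.79% of all genes, and 0 either way for CCl4, beside 1.77% and 1.53%. DESeq2 called 0 members in VSMC-like wells, beside 2.15% of all genes higher and 1.39% lower for BDL, and 1% and 0.734% for CCl4. The ribosomal protein share was 0.747% ± 0.049 (SD, n = 5) in uninjured, 0.636% ± 0.098 (SD, n = 5) in BDL and 0.721% ± 0.060 (SD, n = 4) in CCl4 VSMC-like wells, and the ranges overlapped. The difference between the BDL and the CCl4 effect was called in 0 of 82 members by edgeR and by DESeq2, beside 0% of all genes by edgeR, and 0.67% higher and 0.896% lower by DESeq2. At an unadjusted p under 0.05, edgeR had 0 members, beside 2.01% of all genes higher and 1.9% lower. Summed heat shock gene levels were 793 to 1571 RPM in BDL portions and 1549 to 3088 RPM in uninjured portions of plates 1, 2 and 4, each BDL portion lying below the uninjured portion of its plate, and the part of this in the BDL values was not tested.

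**Figure D5:**
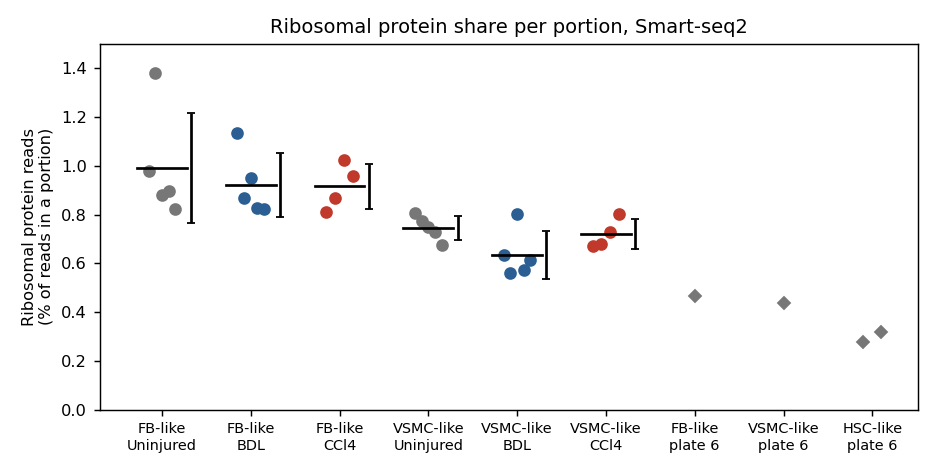
Share of reads on the ribosomal protein genes (percent, y axis) per Smart-seq2 portion (points) in FB-like and VSMC-like wells of plates 1 to 5 by condition, with means (lines) and SD (bars), and per uninjured mouse of plate 6 (diamonds). Conditions overlap within each subpopulation, FB-like means (0.993%, 0.921%, 0.916%) lie above VSMC-like means (0.747%, 0.636%, 0.721%), and the 2 HSC-like mice of plate 6 are lowest (0.279% and 0.318%).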

How the data were processed

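For 10X, the authors deposited raw UMI counts per gene and cell, made with Cell Ranger 2.1.0 and STAR on mm10. For Smart-seq2, the authors deposited read counts per gene and well, aligned with STAR and counted over RefSeq genes with rpkmforgenes and MULTo. Counts were used as deposited. Cells needed 300 genes and at most 30% mitochondrial UMIs. Members and gene lists were chosen with earlier results of these data known. Cells were clustered without the members (leidenalg 0.10.2) and named from listed markers, by a rule set after clusters had been looked at. Doublets were not called. UMIs were summed per library and scaled to CPM, with exact Poisson 95% intervals, which cover counting error only. Smart-seq2 wells were summed per mouse and plate (at least 5 wells) and tested with edgeR 4.0.16 (quasi-likelihood, TMM, plate or portion as a term, Benjamini-Hochberg over all genes), with DESeq2 1.42.0 as an alternative, and the fit was tested on simulated data. Members were named by level (highest 5), by ratio (3 each way per 10X comparison), by adjusted p (up to 5 per Smart-seq2 comparison), as paralogues or as stalk genes. Other members, such as those out of the common order, were named after their values were seen. Some genes that the rule names are not reported here.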

Additional observations from a re-analysis of the deposited data

Results flagged for a closer look

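In FB-like wells of uninjured mice on plates 1 to 5, the ribosomal protein share of plate 2 (1.38%) lay far above the other 4 portions (0.823% to 0.981%). Over the 6 uninjured portions, the plate 6 portion stood apart from the rest in VSMC-like wells for Rplp1 (62.3 RPM) and Rps4x (23.1 RPM), and the plate 2 portion in FB-like wells for Rps26 (206 RPM). Chance alone marks about 1 in 20 groups in this way, and 19 groups were looked at.

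At 6 weeks of CCl4 the median log2 ratio of the members was 0.87 with protocol 2 and -0.081 with protocol 1. The difference between both was not tested, since there was 1 library per condition.

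The 16 symbols left out as pseudogenes, 11 of them at 10 CPM or more, also differed. Their summed level was 1634 CPM in uninjured HSCs, 2366 CPM at 72 h and 3210 CPM at 6 weeks, so that it was higher at 6 weeks than at 72 h, unlike the sum of the members. With protocol 1 it was 2184 CPM in uninjured mice and 2022 CPM at 6 weeks.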

How the results depend on the processing

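The medians at 72 h and at 6 weeks with protocol 2 stayed above 0 under every alternative run. At 72 h the median log2 ratio was 1.253 without mitochondrial genes, 1.46 with the members left out of the total, 1.44 with median-of-ratios scaling, 1.15 in cells with 5000 to 10000 UMIs and 1.253 without the 5% of cells of most UMIs. At 6 weeks with protocol 2 it was 1.00 with the members left out of the total, 1.09 with median-of-ratios scaling, 0.89 as a mean over cells, 0.82 in cells with 5000 to 10000 UMIs and 0.93 in HSC-like cells alone, an alternative chosen after seeing the data. With protocol 1 it was -0.10 with the members left out of the total and -0.12 in cells with 5000 to 10000 UMIs, where 8 members were lower, and with 1.5-fold as the limit 0 were. In FB-like cells, 1 member was lower without mitochondrial genes, with median-of-ratios scaling or as a mean over cells, and with 1.5-fold as the limit 1 was higher and 0 lower. In VSMC-like cells the median was -0.075 with median-of-ratios scaling, 2 members were higher as a mean over cells or without the 5% of cells of most UMIs, and 0 were lower in cells of a middle range of UMIs or with the 1.5-fold limit. Shares of all genes were not counted under these alternatives, so nothing is concluded from these counts of members.

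On the plates, where no injury median passed a test, library sizes from spike-in reads gave medians of 0.30 for BDL and 0.40 for CCl4 over all wells, and 0.51 and 0.25 in VSMC-like wells, where 1 member was then called higher for BDL. The share of all genes called was counted for the main fits and for DESeq2 only. Other calls given here therefore have no such share beside them, and nothing is concluded from them. All genes had medians of 0.67 and 0.45 over all wells and 0.82 and 0.22 in VSMC-like wells under the same scaling. The difference between BDL and CCl4 had a median of -0.027 without the plate term. Leaving out 1 portion gave medians of -0.36 to -0.13 for BDL and -0.14 to 0.16 for CCl4 in VSMC-like wells, and 2 to 10 members higher in FB-like than VSMC-like wells, where DESeq2 called 28. Of 263 values of named members under alternatives, 190 stayed, 60 moved by more than their error and 13 no longer passed the test. The causes were not tested. For the injury comparisons and by replicate number, no paired analysis was possible because such numbers in the labels are not shared between the groups compared; plate, and for FB-like against VSMC-like wells the portion, was a term of the fit instead. With 1 library per 10X condition, the spread between mice is unknown.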
